A study of Homo sapiens with 24 samples.

Results

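NEAT1, MALAT1 and the snoRNA host transcripts GAS5, SNHG1, SNHG3, SNHG5, SNHG7, SNHG8 and SNHG12 are long non-coding RNAs, and their probes were followed over all 24 two-colour arrays of the series. The members were chosen by name, from non-control spots whose annotated gene was 1 of these 9 transcripts (of 44639 gene and interval names on the 2 designs), with the addition on the first array design of lincRNA probes that lie in the NEAT1 and MALAT1 stretch of chromosome 11. This gave 29 of 42405 probes on the first design (10 named, 19 by interval) and 41 of 50599 probes on the second design, all of them named. Of these, 25 and 39 were well above background on all arrays of their design, and 29 and 40 on at least 1 array. The transcripts were picked with their treated over control ratios known, so these ratios are given as a description and no test was made of them.

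Each array held RNA of treated cells in Cy5 and RNA of control cells of the same line in Cy3, with the dyes not swapped and 1 array for each treatment and line. On the first design, PC3 and DU145 (prostate cancer) were treated with genistein, an isoflavone of soy, against untreated cells by the labels. A498 and 786O (renal cell carcinoma) received si-CAV2, and FaDu and SAS (head and neck squamous cell carcinoma) received si-LAMB3, each against control siRNA. The flavone wogonin was given to SAS and FaDu against DMSO. Against control miRNA, miR-145 was transfected into PC3, DU145 and LNCap (a prostate cancer line), miR-375 into FaDu, miR-29a into SAS, and miR-23b, miR-24 and miR-27b into PC3. On the second design, miR-143 in DU145 and PC3 and miR-27b in 786O and A498 were set against control miRNA, si-GOLM1 in DU145 and PC3 against control siRNA, and the chemokine CXCL10 in 786O at 12 h and at 24 h against untreated cells. The sources name no age, passage or clone for the 7 lines.

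The arrays lay on 3 slides, 8 arrays on each, and 53.2% to 68.9% of the non-control probes were well above background in a channel. The median log2 ratio of an array lay between -0.10 (miR-145 in LNCap) and 0.10 (wogonin in SAS). Line markers were as the labels have it for LNCap (KLK3 and TMPRSS2 highest there), for FaDu and SAS (KRT5, KRT14) and for PAX8 in A498 and 786O, whereas CA9 was not well above background in 786O on the first design. The PC3 controls of the second design stood apart from those of the first: on the same probes, KRT6A was at 2.25 and 2.90 against at most -5.75, KRT14 at 0.74 and 0.75 against at most -4.52, and VIM at 2.95 and 3.56 against at least 6.69 (log2 level relative to the 75th percentile of the array). Each PC3 result is therefore given by design.

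NEAT1 is the RNA on which paraspeckles, nuclear bodies rich in RNA-binding proteins, are built. It is transcribed from a single start as a short polyadenylated form and a long form, and only the long form carries the paraspeckle. MALAT1, its neighbour on chromosome 11, is an abundant nuclear RNA of the nuclear speckles, where splicing factors gather. The SNHG transcripts and GAS5 hold small nucleolar RNAs (snoRNAs) in their introns. The snoRNAs guide modification of ribosomal RNA, while the spliced host RNA is exported and often decays through nonsense-mediated decay when it is translated. Several hosts belong to the 5′ terminal oligopyrimidine (TOP) class, whose RNAs open with a C and a run of pyrimidines.

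For NEAT1 the results turned on which side of the short transcript's end a probe lay. The array annotation (hg19) places the short interval's end at position 65193997 of chromosome 11 and the long interval from 65190199 to 65214674, on the forward strand. Exon annotation of this build was not used here. The brightest probe inside the short interval is shown. The brightest beyond it, A_33_P3263538, is called the long-transcript probe.
NEAT1 5′ probe A_19_P00321332, chr11:65193885-65193944 (+): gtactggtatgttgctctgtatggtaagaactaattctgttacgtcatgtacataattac
By position, a 5′ probe lies in both forms and a probe beyond the short end in the long form only. Which RNA each probe reads was not tested.

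For MALAT1 and SNHG7, different probes of the same transcript gave different ratios, and the pairs that differed are shown with their hg19 positions.
MALAT1 body probe A_24_P873659, chr11:65272873-65272932 (+): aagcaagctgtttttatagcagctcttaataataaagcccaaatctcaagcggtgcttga
MALAT1 3′ probe A_19_P00805006, chr11:65273871-65273930 (+): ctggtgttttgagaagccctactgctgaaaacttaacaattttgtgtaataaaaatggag
SNHG7 probe A_33_P3280927, chr9:139619047-139619106 (-): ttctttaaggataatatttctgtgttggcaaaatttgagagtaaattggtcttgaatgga
SNHG7 probe A_24_P352116, chr9:139619969-139620028 (-): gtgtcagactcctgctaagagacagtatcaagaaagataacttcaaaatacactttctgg

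Because TOP starts are the sequence feature that many snoRNA hosts share, the annotated starts were read from RefSeq (GRCh38.p14). Windows of 60 bases, 30 of them before the start, are shown for hosts with and without such a start. Capitals mark the run of C and T that begins at the start with a C.
SNHG12, chr1:28581844-28581903 (-): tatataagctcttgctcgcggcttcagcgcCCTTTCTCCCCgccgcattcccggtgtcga
SNHG5, chr6:85678704-85678763 (-): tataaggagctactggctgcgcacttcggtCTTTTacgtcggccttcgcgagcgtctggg
SNHG7, chr9:136728155-136728214 (-): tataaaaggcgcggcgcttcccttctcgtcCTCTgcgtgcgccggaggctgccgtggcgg
SNHG1, chr11:62855856-62855915 (-): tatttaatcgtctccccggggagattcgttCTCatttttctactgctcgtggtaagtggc
SNHG8, chr4:118278732-118278791 (+): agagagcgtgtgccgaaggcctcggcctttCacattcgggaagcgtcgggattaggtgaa
SNHG3, chr1:28505913-28505972 (+): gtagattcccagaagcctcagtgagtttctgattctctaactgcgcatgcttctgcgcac
A C followed by C or T to a run of at least 5 bases, on the transcribed strand, stood at the start of 2 of 7 hosts (SNHG5 with 5 and SNHG12 with 11 bases), or 28.6%, against 4.07% of 35116 promoters. The runs of SNHG7, SNHG1 and SNHG8 had 4, 3 and 1 bases, and GAS5 and SNHG3 had none at the annotated start. Among the fixed lists the share was 76.9% for TOP mRNAs outside the ribosome (10 of 13), 42.4% for protein-coding snoRNA hosts (14 of 33), 30% for other host transcripts (3 of 10), 4.76% for paraspeckle proteins (2 of 42) and 0% for nuclear speckle proteins (0 of 29). A run is a match of letters at 1 annotated start and was not tested as a TOP site.

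The value of a transcript on an array is the log2 ratio of treated over control, and it was counted as past the limit beyond 1.0 either way (2-fold). For a gene, its brightest sense-strand probe was taken. The brightest probe differed between the designs for MALAT1 and SNHG5. On the first and second designs it was A_19_P00324839 and A_21_P0010981 for MALAT1, and A_23_P361085 and A_19_P00316701 for SNHG5. The median error that the scanner software gave to a log2 ratio of the members was 0.206. It covers technical error of 1 array and no spread between cultures. In these bulk samples, RNA lost from every cell and fewer cells with the RNA cannot be told apart.

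Of 144 values of the 9 transcripts on the first design, 13 lay above the limit and 5 below it, where 7.3% of all probes tested on these arrays lay above and 5.22% below. Genistein gave 12 of the 13 values above. On the 8 arrays of the second design, 0 of 72 values were past the limit, where 1.81% of probes lay above and 1.68% below. Both ends of the range of NEAT1 were in PC3, at 2.48 with genistein and -1.73 with miR-24.

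**Figure D1:**
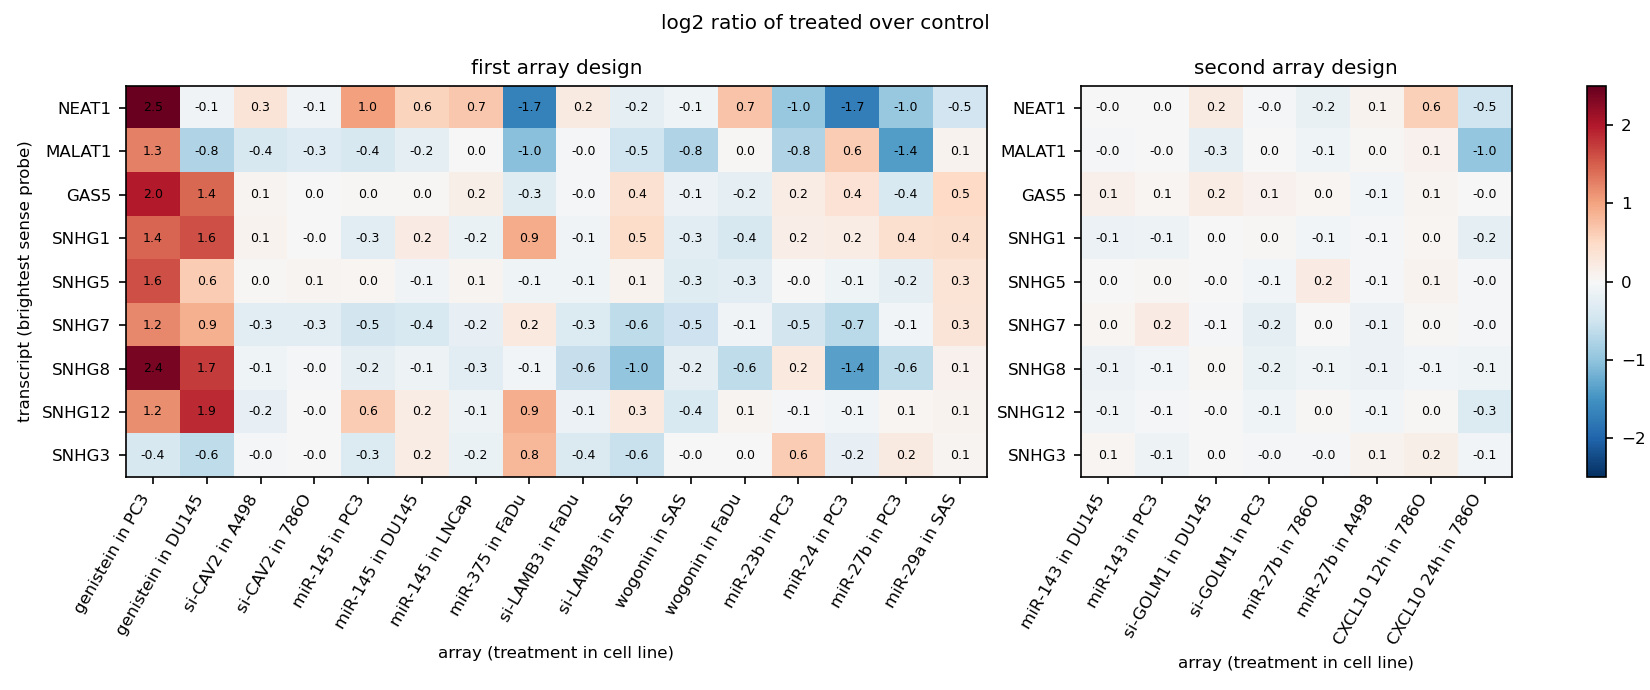
Log2 ratio of treated over control (colour and printed value) for the brightest sense probe of each transcript (rows) on each array (columns), by array design. The genistein columns hold 12 of the 13 values above 1.0, and no value of the second design was beyond 1.0 either way.

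The snoRNA hosts stood high with genistein in both prostate lines. In PC3, 6 of 7 hosts were above the limit, with a median of 1.45 and a range of -0.41 to 2.37. In DU145, 4 of 7 were above the limit, with a median of 1.44 and a range of -0.63 to 1.87. The share of all probes above the limit was 10.7% in PC3 and 5.86% in DU145, and 7.12% and 6.62% were below. Since the hosts were picked with these ratios known, nothing is read from the comparison with these shares.

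SNHG8, a host on chromosome 4, had the highest value of the hosts in PC3, 2.37 ± 0.30 (software error), and reached 1.74 ± 0.26 in DU145. GAS5, a host of box C/D snoRNAs known for its rise in growth-arrested cells, was at 1.99 ± 0.27 in PC3 and 1.44 ± 0.24 in DU145. SNHG1 was at 1.45 in PC3 and 1.61 in DU145. SNHG12 was at 1.15 in PC3 and at 1.87, the highest host value there, in DU145. These 4 hosts were past the limit in both lines.

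SNHG5 was at 1.61 ± 0.25 in PC3 and at 0.64 ± 0.21 in DU145, so that only the PC3 value was past the limit. On the first design, 17 further probes with 60-mers that the second design names SNHG5 carry interval names and fall outside the rule. The lowest and highest of their ratios were 1.45 and 2.12 in PC3, with 0.49 and 0.70 in DU145, and they ran on the other 14 arrays from -0.54 (miR-27b in PC3) to 0.42 (miR-29a in SAS). The SNHG5 probes overlap each other and are not separate measurements of the RNA.

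SNHG7 differed by probe. The brighter probe, A_33_P3280927, was at 1.20 in PC3 and 0.89 in DU145, whereas A_24_P352116, which is annotated to another RefSeq transcript of the gene, was at -0.73 and -0.20. Over the 16 arrays the Pearson r of the pair was -0.30. The dimmer probe was past the limit with miR-375 in FaDu (1.53), where the brighter one was at 0.24.

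SNHG3, a host of H/ACA snoRNAs, went against the other hosts with genistein, at -0.41 ± 0.21 in PC3 and -0.63 ± 0.21 in DU145. It was past the limit on no array. Its highest value was 0.83, with miR-375 in FaDu.

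On the 6 arrays that shared the slide of the genistein arrays, the hosts ranged from -0.46 to 0.93. Outside genistein, SNHG8 was the only host past the limit, at -1.36 with miR-24 in PC3, and it was at -0.99 with si-LAMB3 in SAS. SNHG1 and SNHG12 were at 0.93 and 0.91 with miR-375 in FaDu. On the second design the hosts stayed between -0.34 (SNHG12, CXCL10 at 24 h) and 0.21 (SNHG7, miR-143 in PC3). Correlations among the hosts other than SNHG3 were lower without genistein. Over the 16 arrays of the first design r was 0.94 for GAS5 and SNHG5 and 0.84 for SNHG1 and SNHG12. Over the 14 arrays without genistein these were 0.74 and 0.52. For GAS5 and SNHG8 r went from 0.81 to -0.11. The correlations of SNHG3 with the other hosts were higher without genistein, from -0.14 to 0.49 with SNHG1 and from -0.55 to -0.42 with GAS5.

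**Figure D2:**
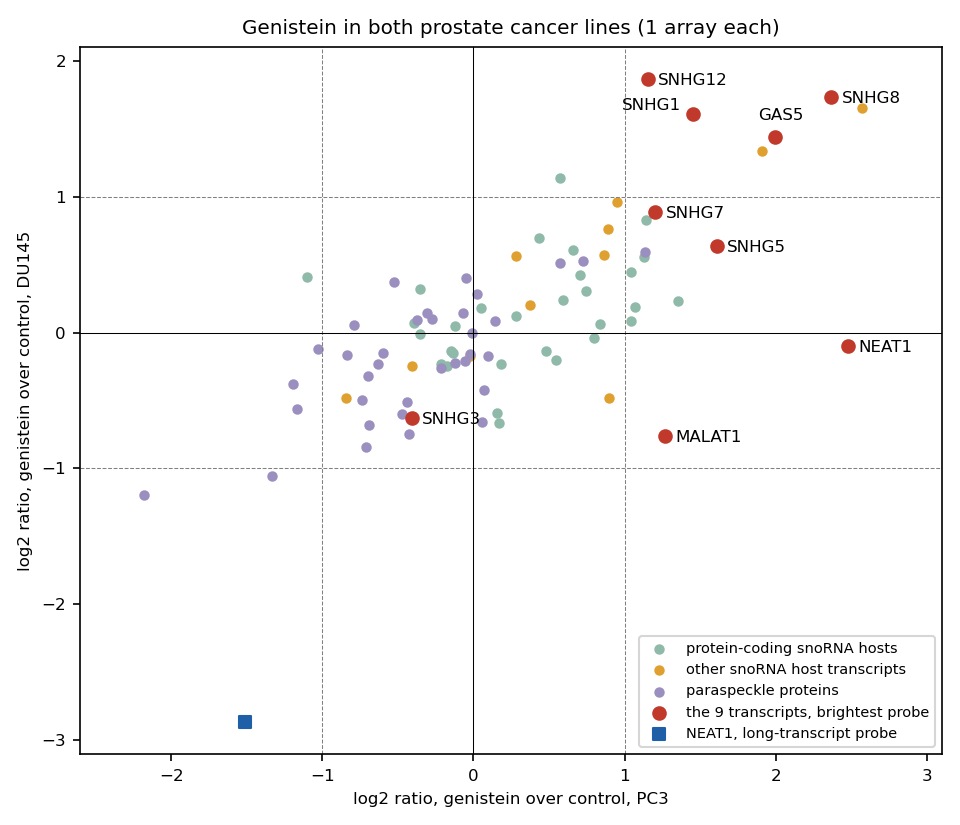
Log2 ratio with genistein in PC3 (horizontal) and DU145 (vertical), 1 array each, for the 9 transcripts, the long-transcript probe of NEAT1 and 3 gene lists, with dashed lines at 1.0 and -1.0. GAS5, SNHG1, SNHG8 and SNHG12 lie past 1.0 in both lines, NEAT1, MALAT1, SNHG5 and SNHG7 in PC3 alone, and the long-transcript probe below -1.0 in both. MALAT1 and SNHG7 are shown by their brightest probe. In PC3 the MALAT1 probes nearest the 3′ end were between -0.13 and 0.40, and the other SNHG7 probe was at -0.73.

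Other snoRNA host transcripts, from a list of 16 with 12 on the first design, had 2 of 11 tested above and 0 below the limit in PC3 (median 0.87) and 2 of 12 above and 1 below in DU145 (median 0.39). The medians of all tested probes were 0.08 and -0.01. ZFAS1 was at 2.57 in PC3 and 1.65 in DU145, EPB41L4A-AS1 at 1.91 and 1.34, and SNHG4 at -1.41 in DU145, with no tested value in PC3. With miR-375 in FaDu, 2 of 11 were above and 3 below (median 0.34), with ZFAS1 at -1.17 and EPB41L4A-AS1 at -1.27 among those below, and SNHG10 at 1.71 and SNHG20 at 1.64, named after their values were seen, above.

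Protein-coding hosts of snoRNAs, most of which encode ribosomal proteins or translation factors, had 6 of 30 above and 1 below in PC3 (median 0.46) and 1 of 30 above and 0 below in DU145 (median 0.11). TPT1, a growth-related TOP mRNA, was at 1.35 in PC3 and 0.23 in DU145. RPL13A was at 1.07 and 0.19, and RPL27A at -1.10 and 0.41. The RPL27A probe had no tested value with si-CAV2 in A498 and was at -3.30 with miR-145 in PC3. Whether it reads this mRNA well was not tested. HSPA9, the value above the limit in DU145 (1.14), was at 0.57 in PC3 and is named after its values were seen. TOP mRNAs outside the ribosome had 2 of 17 above in PC3 (median 0.43) and 0 of 17 in DU145 (median -0.02). EEF1A1, the main translation elongation factor, was at 1.14 and -0.23, and NAP1L1, a histone chaperone, at -0.05 and 0.26.

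The proteins that build snoRNPs had 0 of 17 past the limit in PC3 (median 0.01) and 1 of 16 above in DU145 (median 0.34), with NUFIP1, an assembly factor of box C/D snoRNPs, at 0.12 and 1.11. NOLC1, a nucleolar phosphoprotein, was at 0.22 and 0.63, and NAF1, an H/ACA assembly factor, at 0.37 in PC3. Nonsense-mediated decay factors had 1 of 16 above in PC3 (median 0.15) and 0 of 16 in DU145 (median 0.21). The value above was that of NBAS, just past the limit and named after its values were seen, and the exon junction proteins EIF4A3 (-0.50 and -0.27) and MAGOH (0.28 and 0.48) and the helicase DHX34 (-0.34 and 0.32) were within the limit. For all of these lists the counts are given without a test.

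NEAT1 split by position with genistein. In PC3 the 3 probes inside the short interval were at 1.25, 1.96 and 2.48, while the 3 measured probes beyond it were at -1.68, -1.51 and -1.39. The brightest probes of each side differed by 3.99 ± 0.39 (log2, combined software error). In DU145 the 5′ probes were at -0.61, -0.55 and -0.10. The probes beyond were at -1.65, -2.42, -2.87 and -3.31 in order of position, with a probe near the far end at 0.76. The probes at -1.65 (error 0.66) and 0.76 (error 0.52) were both dim, well above background on 4 and 7 of 16 arrays. Here the difference of the brightest probes was 2.77 ± 0.39.

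Thus, apart from the dim probe near the far end, the measured probes beyond the short end lay below the limit in both lines. Of these, the DU145 value of -1.65 came from a dim probe as well. The 5′ probes lay above the limit in PC3 only. With another background correction (normexp) the bright long-transcript probe A_33_P3263538 kept its values, -1.39 in PC3 and -2.59 in DU145. The dim A_19_P00320033 and A_19_P00809313 moved to -0.39 and -0.76 in PC3 and to -1.07 and -2.63 in DU145.

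On other arrays the probes beyond the short end did not all move together. With miR-24 in PC3 the 5′ probe was at -1.73 and the long-transcript probe at 0.54, a difference of -2.27 ± 0.33. Beyond the short end, A_19_P00320033 was at 0.46, but A_19_P00809313, at -0.82, had the direction of the 5′ probe. With miR-29a in SAS the 5′ probe was at -0.48 and the long-transcript probe at 0.58. The dim A_19_P00320033 was at 1.74 there, or 0.47 under normexp. With miR-375 in FaDu the 5′ probes were between -1.83 and -1.17, and the probes beyond the short end differed among themselves: the long-transcript probe was at -1.36 and the other 4 were at 0.54, -0.79, 0.04 and 0.08. On this array 10.5% of all probes lay above the limit and 12.2% below. On the miR-24 array these shares were 15% and 11.3%.

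Among the 5′ probes, the miR-24 ratio was at -1.77 and -1.73 for those near the short end and at -0.15 for A_19_P00318409, further upstream. With miR-23b and miR-27b in PC3 the brightest probe was at -0.96 each. These 3 arrays have control channels that correlate closely and may share 1 control RNA, so that they are not independent of each other. With miR-145 the brightest probe was at 1.02 in PC3, 0.56 in DU145 and 0.68 in LNCap.

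The probe A_19_P00809313, 22742 bases from the start of the long interval, had the widest swings. It was at -2.09 and -2.28 with si-CAV2 in A498 and 786O, where the long-transcript probe was at -0.28 and -0.55, and at 1.77 and 1.85 with si-LAMB3 in FaDu and SAS, where the latter was at 0.81 and 0.42. Under normexp the si-CAV2 values became -0.93 and -0.78. Across the 16 arrays the brightest 5′ probe and the long-transcript probe had an r of -0.05, whereas the 2 5′ probes near the short end had an r of 0.995.

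**Figure D3:**
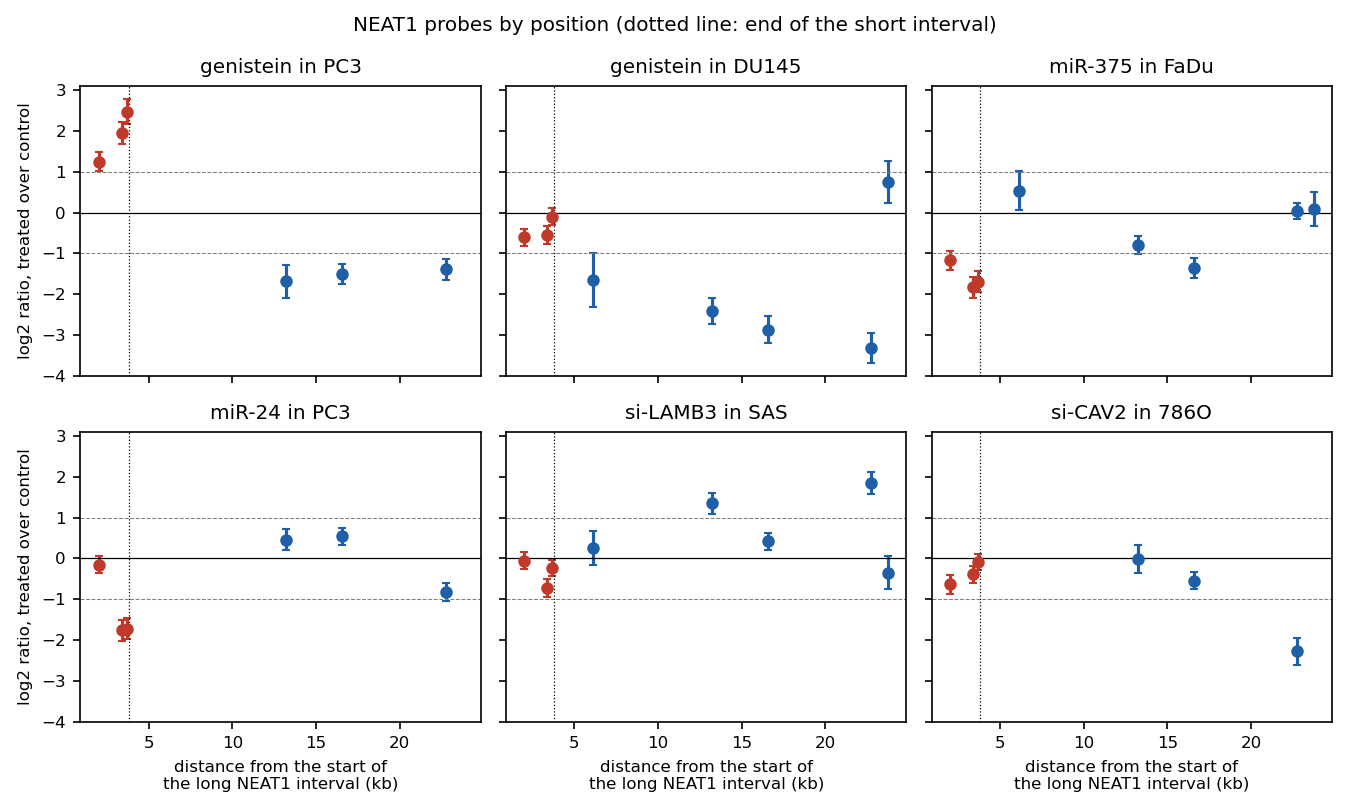
Log2 ratio of NEAT1 probes well above background (vertical, bars: software error) by distance from the start of the long interval in kb (horizontal) on 6 arrays. Red points are probes inside the short interval and blue points probes beyond its end (dotted line), and with genistein in PC3 the red points lie between 1.25 and 2.48 and the blue between -1.68 and -1.39.

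On the second design, CXCL10 in 786O gave low NEAT1 values at 24 h on both sides. The 4 probes inside the short interval were between -0.99 and -0.50, and the 2 beyond it at -1.16 (A_33_P3263538) and -1.49 (A_21_P0010978). At 12 h the 5′ probes were between 0.05 and 0.60 and the probes beyond at 0.31 and 0.32. On the other 6 arrays the long-transcript probe lay between -0.32 and 0.42. A_21_P0010978 was dim, and its value at 24 h became -0.35 under normexp. The 2 NEAT1 probes on the reverse strand of the first design were not counted as the gene; the brighter ranged from -0.48 to 0.42.

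Genes of the paraspeckle proteins, 35 in the list, had 1 above and 5 below the limit in PC3 with genistein (median -0.37) and 0 above and 2 below in DU145 (median -0.17). SFPQ, which binds the body of NEAT1, was at -2.18 and -1.19 and HNRNPM at -1.33 and -1.06. In PC3 RBM12 (-1.19) and RBM14 (-1.03) were also below the limit and CIRBP (1.13) above it, and these 5 are named after their values were seen. Of the genes named by the rule, HNRNPH3 was at 0.72 and 0.53, ZC3H6 at 0.57 and 0.51 and RUNX3 at 0.10 and -0.17. With miR-375 in FaDu, ZC3H6 was at -2.93 and HNRNPH3 at -1.28.

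MALAT1 also moved differently in the lines, and its probes fell into groups. With genistein in PC3 the 2 probes on the 5′ side of the group, A_24_P873659 and A_19_P00324839, were at 1.46 and 1.27, and the 3 nearest the 3′ end were at 0.40, 0.36 and -0.13. In DU145 all 5 were low, the first pair at -0.59 and -0.76 and the others at -1.12, -1.18 and -1.02. Over the 16 arrays r was 0.98 within the pair, 0.92 to 0.98 among the other 3 probes, and 0.40 to 0.61 between the groups.

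The 5 measured probes on the reverse strand of the MALAT1 stretch, which were not counted as the gene, followed the pair. They were between 1.39 and 1.72 with genistein in PC3 and between -0.74 and -0.15 in DU145, with an r to A_24_P873659 of 0.92 to 0.98. Whether they read an antisense RNA or MALAT1 itself was not tested.

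With miR-375 in FaDu the MALAT1 probes were between -1.25 and -0.79, and with miR-27b in PC3 the pair was at -1.15 and -1.40 and the 3′ probes between -0.70 and -0.46. With miR-24 in PC3 the pair was at 0.88 and 0.63, on the side opposite to NEAT1. Genes of nuclear speckle proteins, 22 in the list, had 0 above and 4 below the limit with genistein in PC3 (median -0.36) and 0 past it in DU145 (median -0.19). The 4 were splicing factors of the SR family, SRSF7 (-1.46 in PC3, -0.19 in DU145), and, named after their values were seen, SRSF1 (-1.25, -0.18), SRSF2 (-1.21, -0.74) and SRSF3 (-1.15, -0.29). SON was at -0.77 and -0.27 and PNN at -0.79 and 0.38.

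On the second design the brightest MALAT1 probe, A_21_P0010981, was between -0.25 and 0.11 on 7 arrays and at -0.97 with CXCL10 at 24 h. A_19_P00324839 stood apart: it was at 0.88 and -1.13 with miR-143 in DU145 and PC3, at -2.04 and -0.06 with si-GOLM1 in DU145 and PC3, at -1.32 and 1.07 with miR-27b in 786O and A498, and at -1.35 and 0.16 with CXCL10 at 12 h and 24 h. A_24_P873659 and A_21_P0010980 followed it with smaller values (r of 0.97 and 0.84 over 8 arrays), between -0.94 and 0.50 and between -0.67 and 0.47. The other 5 probes had an r to A_19_P00324839 between -0.24 and 0.25. A_19_P00324839 is also the probe that stands for MALAT1 on the first design.

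**Figure D4:**
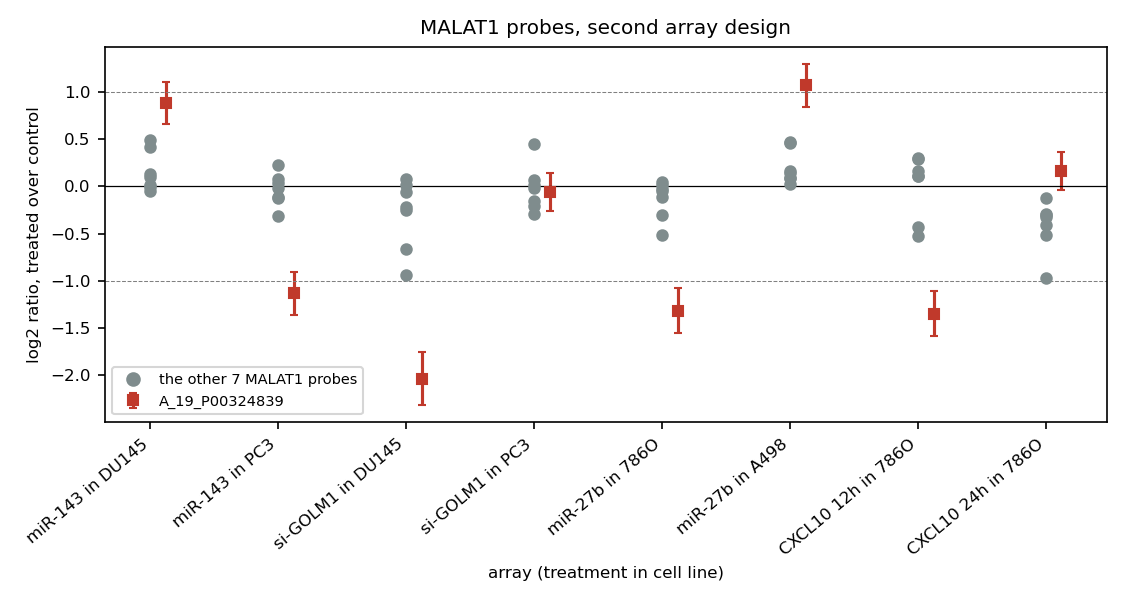
Log2 ratio of the 8 MALAT1 probes (vertical) on the 8 arrays of the second design (horizontal), with A_19_P00324839 as red squares (bars: software error) and the other 7 probes as grey points. A_19_P00324839 spans -2.04 to 1.07, and the other probes lie between -0.97 and 0.50.

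Genes with the most similar ratios over the 16 arrays of the first design were sought among 13665 genes, by Pearson r. The arrays include those of genistein, and r without them was not computed for these genes. For GAS5 the nearest were other snoRNA hosts, ZFAS1 (0.91), SNHG32 (0.90) and EPB41L4A-AS1 (0.90). With genistein in PC3 and DU145, GAS5 (1.99 and 1.44), ZFAS1 (2.57 and 1.65) and EPB41L4A-AS1 (1.91 and 1.34) had their highest values of the design. Ribosomal protein mRNAs were among the nearest of SNHG5 (RPL26, 0.92, with MSS51, 0.92, and an unnamed probe), SNHG7 (RPLP1, 0.87, with TTC19, 0.87, and an unnamed probe), SNHG8 (RPS12, 0.89, and RPL13, 0.88, after ZFAND2B, 0.93) and SNHG12 (RPLP1, 0.85, after PGAP6, 0.90, and TTC19, 0.86). For SNHG1 they were CCDC112 (0.89), USP45 (0.87) and LY96 (0.86), and for SNHG3 PRADC1 (0.86), PPP1CA (0.82) and CYB561A3 (0.81).

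For NEAT1 the nearest were CDC42BPB, ZBTB22 and LGALS3 (0.88 each), and for MALAT1 RNF103 (0.86), KRTAP10-12 (0.85) and OCIAD1 (0.83). On the 8 arrays of the second design, the brightest probe of each of the 9 transcripts stayed within the limit. There r with NEAT1 was -0.47 for CDC42BPB, -0.46 for ZBTB22 and 0.37 for LGALS3. For GAS5 it was 0.03 with ZFAS1 and -0.34 with SNHG32. Of the ribosomal protein mRNAs, RPLP1 had an r of 0.78 with SNHG7 and 0.15 with SNHG12. RPL26 had 0.52 with SNHG5, and RPS12 and RPL13 had 0.29 and -0.59 with SNHG8. All these values come from the same arrays and describe likeness only.

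The control channel gives the level of the transcripts in the control cells of each line. It is also the denominator of the ratios known when the transcripts were picked, so these levels are not independent of that choice. Among the PC3 samples of the first design, the genistein control was the lowest for SNHG5 (2.86) and SNHG7 (-1.22) and the highest for GAS5 (5.27). The control cells were untreated by the labels (genistein, CXCL10), given DMSO (wogonin) or transfected with control siRNA or miRNA. The study's methods give a DMSO vehicle for genistein. Levels are log2 Cy3 signals of the same probe relative to the 75th percentile of the array, compared between lines with limma and Benjamini-Hochberg adjustment over all tested probes. Control treatments differed within a line and count as its spread, and nothing says that they came from separate cultures, so that the p-values measure the spread between these samples only. The 3 PC3 controls of the miR-23b, miR-24 and miR-27b arrays were averaged as 1 sample.

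SNHG5, SNHG7 and GAS5 were lower in PC3 than in DU145. On the first design SNHG5 was at 2.86, 3.09 and 3.37 in PC3 and at 6.33 and 6.85 in DU145, so that the lines did not overlap. The difference was -3.49 ± 0.33 (SE), with an adjusted p of 5.5e-05 in limma. SNHG7 was at -1.22, -0.90 and -0.29 against 2.21 and 3.14, a difference of -3.48 ± 0.40 (adjusted p = 0.0002, limma). GAS5 was at 4.63, 5.21 and 5.27 against 6.77 and 7.38, a difference of -2.03 ± 0.38 (adjusted p = 0.0036, limma). Thus 3 of 9 transcripts were called, where 22.3% of 28789 probes were.

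The dimmer SNHG7 probe was lower in PC3 as well, by a difference of -1.66 (adjusted p = 0.035, limma). SNHG1 differed by -1.36 (95% interval -2.34 to -0.38, adjusted p = 0.051, limma), MALAT1 by -1.31 (-2.46 to -0.16, adjusted p = 0.098) and NEAT1 by -1.10 (-2.20 to 0.00, adjusted p = 0.15), and none of these passed. SNHG8, SNHG12 and SNHG3 were at -0.50, -0.49 and -0.78. The brightest NEAT1 long-transcript probe was at 0.15 (-1.48 to 1.79).

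On the second design, with other controls of these lines, PC3 was again lower for SNHG5 (4.05 and 4.31 against 7.12 and 7.22, difference -2.99 ± 0.24, adjusted p = 0.0012), for SNHG7 (0.27 and 0.51 against 3.38 and 3.76, difference -3.18 ± 0.23, adjusted p = 0.00093) and for GAS5 (5.60 in both against 7.67 and 7.82, difference -2.15 ± 0.22, adjusted p = 0.0028; all limma). All 18 SNHG5 probes were called, with differences from -3.60 to -2.96. NEAT1 was lower by a difference of -1.53 ± 0.25 (adjusted p = 0.012, limma) and MALAT1 by -1.56 ± 0.38 (adjusted p = 0.042), which made 5 of 9 against 16.8% of 30453 probes. These 2 calls were lost when any of the 4 controls was left out, and the other 3 were kept in each case.

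Of the NEAT1 probes beyond the short end, A_21_P0010978 was lower in PC3 by -2.11 (adjusted p = 0.035) and A_33_P3263538 by -1.04 (adjusted p = 0.20, limma). Since the PC3 controls of the second design differed in KRT6A, KRT14 and VIM from those of the first, the bearing of this on the levels was not tested; the SNHG5, SNHG7 and GAS5 differences had the same direction on both.

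**Figure D5:**
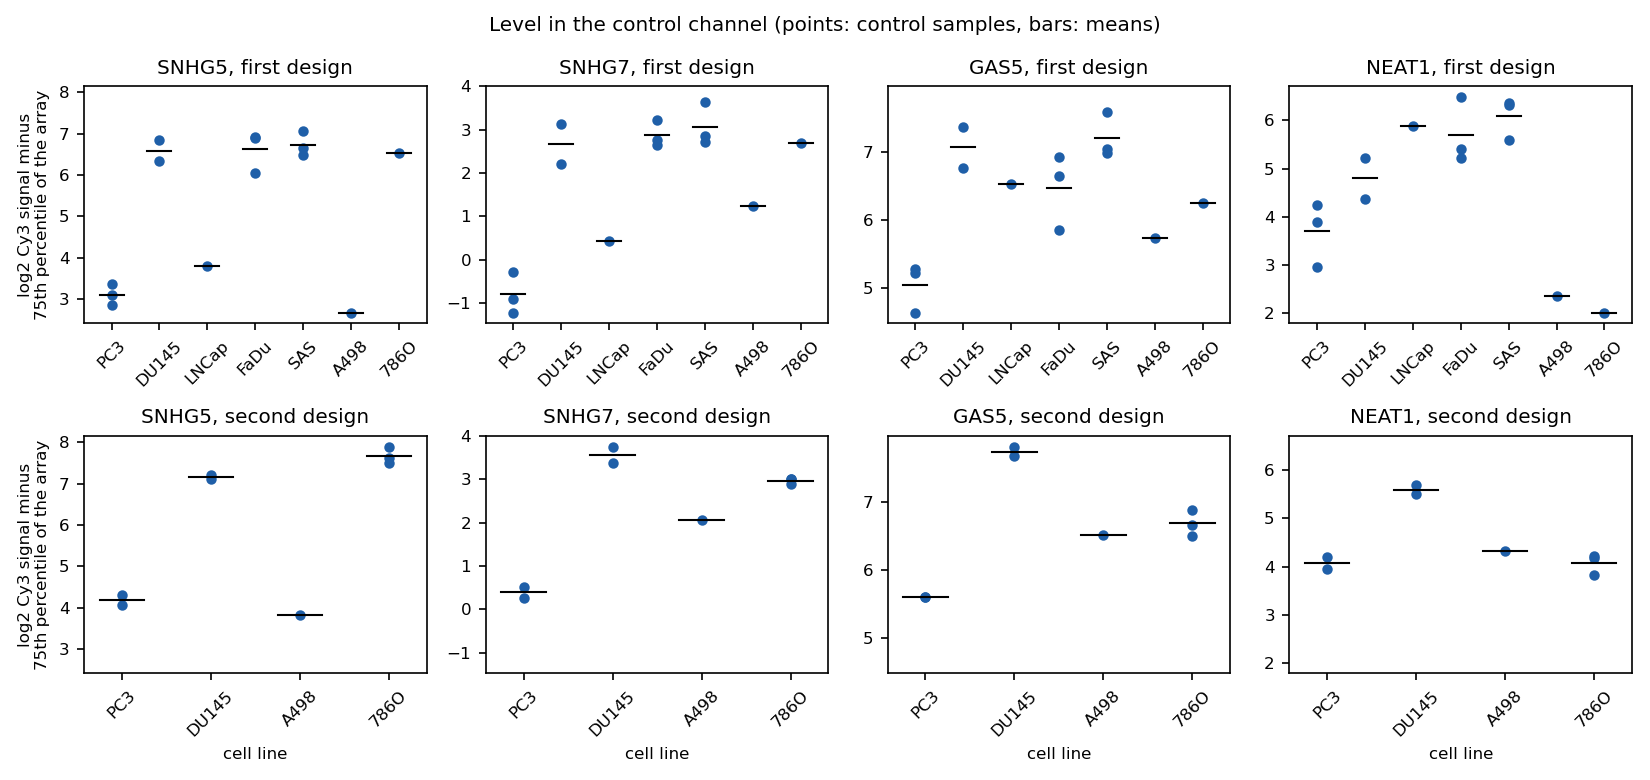
Level of SNHG5, SNHG7, GAS5 and NEAT1 (5′ probe) in the control channel (vertical, log2 Cy3 signal minus the 75th percentile of the array) by cell line (horizontal), for the first design (top) and the second (bottom). Points are control samples and bars their means, and PC3 lies below DU145 for SNHG5, SNHG7 and GAS5 on both designs.

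Over the 7 lines of the first design, SNHG5 was low in A498 (2.67), PC3 and LNCap (3.79) and high in the other 4, from 6.06 in FaDu to 7.06 in SAS. A498 and 786O (6.53) parted in the same way on the second design, at 3.81 against 7.49, 7.62 and 7.89, with 1 A498 control on each. These second-design values are of A_19_P00316701. The probe used on the first design, A_23_P361085, was at 3.69 in A498 and at a mean of 7.55 in 786O on the second. The order for SNHG7 was PC3, LNCap (0.42), A498 (1.23) and then the other 4 lines, which overlapped between 2.21 and 3.63. NEAT1 was lowest in 786O (2.02) and A498 (2.36), with 1 control each, and reached 6.49 in FaDu, with DU145 (4.38 and 5.22), LNCap (5.88), FaDu and SAS (5.60 to 6.37) above PC3 (2.96 to 4.24). DU145 and PC3, next to each other in this order, were not called different on this design. The low place of the renal lines was not seen on the second design, where the same probe was at 3.82 to 4.22 in 786O and 4.33 in A498 against 3.95 and 4.20 in PC3.

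MALAT1 ran from 2.72 in SAS to 5.18 in FaDu, and most lines overlapped. SNHG8 was highest in LNCap (6.78) and between 3.84 and 4.56 in PC3. SNHG12 was lowest in PC3 (2.02 to 3.17), whose range overlapped with those of DU145 (2.29 to 3.56) and FaDu (2.77 to 3.57), and reached 4.59 in 786O. SNHG3 was lowest in A498 (2.91) and highest in LNCap.

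FaDu and SAS differed in SNHG1. It was at 3.32, 3.57 and 4.01 in FaDu and 4.90, 5.22 and 5.33 in SAS, a difference of -1.52 ± 0.39 (adjusted p = 0.016, limma), and it was the only 1 of the 9 called, where 26.7% of 24359 probes were. The call was lost without the control of the miR-375 array in FaDu or that of the miR-29a array in SAS. On the slide that held both lines, FaDu was at 3.57 and 4.01 and stayed below SAS. MALAT1 was higher in FaDu by 0.88 to 1.29 over its 5 probes, and none passed (adjusted p of 0.050 to 0.19, limma).

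On average, each line given equal weight, the squamous lines stood above the prostate lines in SNHG5 by 2.19 ± 0.22 (adjusted p = 5.8e-05), in SNHG7 by 2.21 ± 0.27 (adjusted p = 0.00019) and in NEAT1 by 1.11 ± 0.33 (adjusted p = 0.026, limma). Not every line followed the average: for SNHG5 and SNHG7 DU145 overlapped with FaDu and SAS, so that PC3 and LNCap were the lines below, and for NEAT1 LNCap (5.88) lay within the squamous range. Thus 3 of 9 were called, where 35% of 30346 probes were. All 3 NEAT1 5′ probes passed (1.10 to 1.16), whereas the 4 tested probes beyond the short end were between -0.22 and 0.27 and did not. The NEAT1 call was lost with slide as a block, with quantile normalization, with normexp and when the control of the miR-145 array in DU145, of si-LAMB3 in SAS or of wogonin in SAS was left out. Without LNCap, which is a single sample, 7 of 9 were called. The share of all probes called in that fit is not given, so nothing is read from this count.

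Against PC3 on the second design, 786O was higher in SNHG5 (difference 3.49 ± 0.22, adjusted p = 0.00021), SNHG7 (2.58 ± 0.21, adjusted p = 0.00061), SNHG8 (1.19 ± 0.22, adjusted p = 0.012) and GAS5 (1.08 ± 0.20, adjusted p = 0.013, limma), 4 of 9 where 26.3% of 29670 probes were called. The SNHG8 and GAS5 calls were lost when either PC3 control was left out. NEAT1 differed by 0.00 (95% interval -0.54 to 0.55). For MALAT1 the 3 probes nearest the 3′ end were higher in 786O by 2.07 to 2.96 (adjusted p of 0.0087 to 0.026, limma), while the other 5 were between 0.40 and 0.92 and did not pass.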

How the data were processed

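RNA of treated (Cy5) and control (Cy3) cells was measured on 24 Agilent arrays. The deposited files came from the image software Feature Extraction (version 10.7.3.1), per the file headers with background subtraction and dye normalization, as log10 ratios and as intensity values of each channel. The deposited error of a ratio is a score of the software's error model, and the series matrix held the same log10 ratios (largest difference 0). Control spots and outlier-flagged spots were left out, saturated spots kept and spots of a probe averaged. Log10 ratios were multiplied by 3.3219 to log2. A probe was tested on an array where it was well above background in at least 1 channel. With 1 array for each treatment and line, ratios got no test. Their precision is limited by the number of arrays.

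For control levels, the deposited processed Cy3 intensity was put on the log2 scale, the array's 75th percentile subtracted, and lines compared within a design by lmFit and eBayes (limma 3.58.1, R 4.3.3), with a threshold of 0.05 on the adjusted p. The fit was first tested on simulated data with known changes. The rest was computed in Python 3.11.15. Sequences came from the array annotation and from RefSeq. Symbols were updated through RefSeq, which has no start window for NEAT1 here. The alternatives changed background correction, normalization, centring, probe choice, filter, limit, slide and samples.

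The members and gene lists were chosen with earlier results of these data known. Named are all members, from each list up to 3 genes past the limit on the most arrays of the first design, and the 3 genes of highest r to each member. Some genes and a probe sequence are not reported here.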

Additional observations from a re-analysis of the deposited data

Results flagged for a closer look

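With miR-27b, the MALAT1 probe A_19_P00324839 moved in opposite directions in the renal lines, -1.32 in 786O and 1.07 in A498 on the log2 scale, with 1 array each, and the difference was not tested. On these arrays the other 7 MALAT1 probes lay between -0.52 and 0.05 in 786O and between 0.02 and 0.47 in A498.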

How the results depend on the processing

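With a limit of 0.5 in place of 1.0, 43 values of the first design and 3 of the second were past it. The other alternatives left 12 to 19 values past the limit on the first design, 12 where all probes of a gene were averaged, and 0 on the second. Of 50 single probe values past the limit on the first design, 50 stayed past it in the series matrix and after median centring, 45 after subtracting the probe's mean over other treatments, 41 without background correction and 36 with normexp, and none reversed. Of 7 on the second design, 7, 7, 5, 6 and 6 stayed.

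In the control channel, PC3 against DU145 on the first design gave 5 of 9 with the 3 PC3 controls counted as 3 samples, and 3 to 5 when each control was left out (5 without the miR-145 PC3 control). FaDu against SAS gave 2 with slide as a block and 0 to 1 leaving out controls. Squamous against prostate lines gave 6 with 3 PC3 samples and 2 to 7 leaving out controls. PC3 against DU145 on the second design gave 3 whichever control was left out, and 786O against PC3 gave 2 to 5. The 5 held SNHG1, lower in 786O than in PC3, without the miR-27b control of 786O. No call of the report changed direction under these alternatives. The treatment of the array was also used as a block, an alternative chosen after seeing the data. It sets controls of the same experiment against each other. PC3 against DU145 then gave 5 on the first design (adding MALAT1 and SNHG1), where 23.2% of all probes were called. On the second design this comparison gave 6 (adding SNHG1), where 28.2% were called. FaDu against SAS gave 2 (adding GAS5), where 28.2% were called. These fits had 2 residual degrees of freedom, and no call was lost. For the other alternatives of the control channel the share of all probes is not given, so nothing is read from their counts. The other line comparisons share no experiment. The labels number no replicates, so no pairing by replicate number was made. Signal over background limits the dim probes, such as several NEAT1 probes beyond the short end, whose ratios shrank under normexp.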
